A study of Canis lupus familiaris with 18 samples.

Results

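The genes described here make up the MHC class I presentation pathway of the dog, measured in high grade oligodendroglioma (HGO). They were chosen by symbol from a list of 10 names, and 9 of the 10 were found among the 29993 genes counted. The 9 were DLA88 (ENSCAFG00000000487), ENSCAFG00000051129, B2M, TAP1, TAPBP, ERAP1, CALR, PDIA3 and NLRC5. TAP2 was not analysed here. ENSCAFG00000051129 has no symbol in the counts and was added because its values correspond to those that the study gives under the name DLA88. It was therefore chosen on the comparison of breeds, and its values in that comparison are given as a description with no test.

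Class I molecules display peptides from inside the cell on its surface, where cytotoxic T cells read them. A heavy chain, encoded in the dog by DLA genes, pairs with beta-2-microglobulin. Peptides cut by the proteasome are pumped into the endoplasmic reticulum by the TAP transporter, trimmed there, and loaded with the help of chaperones. Interferons raise many of these genes, and normal brain tissue holds little class I.

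The study asked whether HGO of French bulldogs differs in its transcriptome from HGO of related breeds. RNASeq counts came from formalin-fixed, paraffin-embedded prosencephalic HGO in 18 libraries, 11 of French bulldogs and 7 of a comparison group, which held 4 boxers and 3 Boston terriers. The tumors arose in pet dogs and were resected before any trial treatment. Age and sex are not in the labels and were not used in any fit. Totals on genes ranged from 8.21 M to 13.17 M, and the limit of 3 counts that this depth allows corresponded to 0.228 to 0.365 CPM (counts scaled to a common library size), counting error only. French bulldogs 2 and 8 have 1 case number in both of their library names. They differed beyond sampling noise, with a chi-square per degree of freedom of 9.41, but were closer than any of 75 other pairs of the same group (30.31 to 326.33). The study lists them as separate dogs, but gives both the same age, sex and tumor location. Whether they are 1 animal was not settled. They are summed or counted as 1 unit where stated. Elsewhere, as in the main test, the group sizes and the counts of dogs, they count as 2.

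French bulldog 6 stood apart, and the breed comparison of each gene tested is given with and without it. The oligodendrocyte lineage markers, which define the labelled tumor type, summed to 179 normalized CPM in this library and to between 5459 and 14280 in the other 17. OLIG2 and NKX2-2, transcription factors of that lineage, were at 0 counts in French bulldog 6, and 12 of the 13 lineage markers were lowest in it. The 5 astrocyte markers were all lowest in it too, with a sum of 22.5 normalized CPM against 515 to 5385 in the others. Macrophage and microglia markers summed to 9943 normalized CPM in French bulldog 6 and to between 103 and 614 in the other 17, with 15 of 17 markers highest in it. The remaining lists of immune markers were also high there, with 14 of 15 T cell and NK cell markers and 6 of 7 B cell and plasma cell markers at their highest of the 18 libraries. OLIG1 and SOX10 had 4 and 2 counts. In bulk tissue, more cells of a type and more RNA per cell cannot be told apart.

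**Figure D1:**
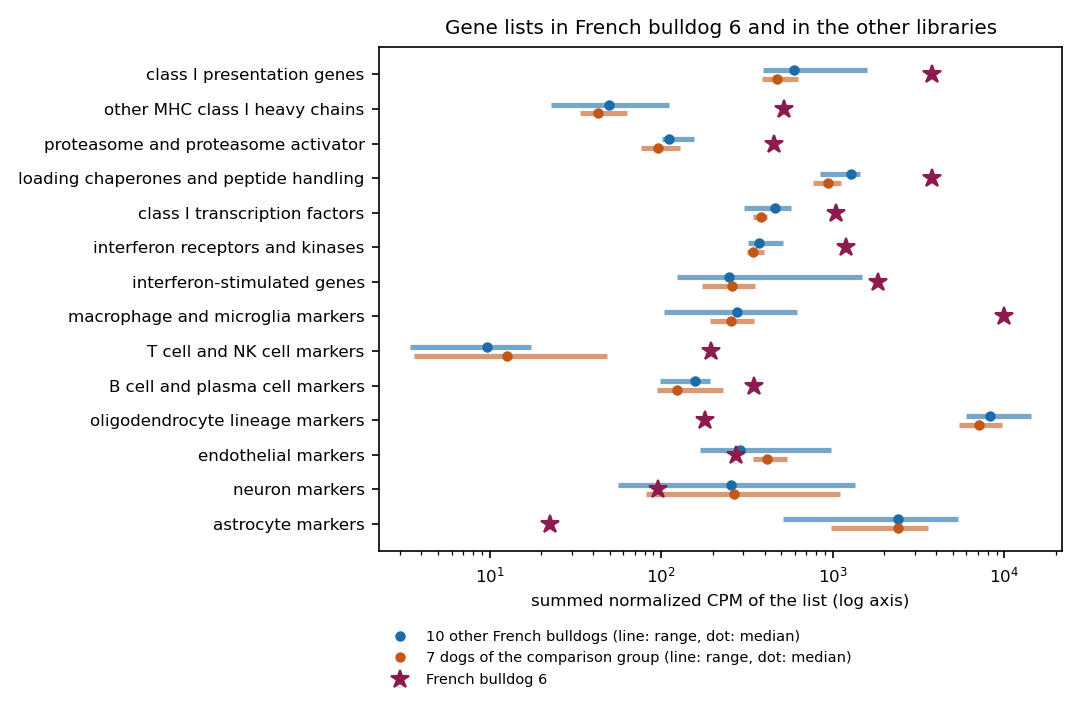
Summed normalized CPM (log axis) of the class I presentation genes and of 13 gene lists. Lines give the range and dots the median, separately for the 10 other French bulldogs and the 7 comparison dogs. The star is French bulldog 6, which held 9943 normalized CPM of macrophage and microglia markers and 179 of oligodendrocyte lineage markers.

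All 9 class I presentation genes had their highest level of the 18 libraries in French bulldog 6, including 8 of 8 that passed the filter on low counts. Over all genes tested, French bulldog 6 was highest in 3434 of 16495 (20.8%). Relative to the median of the other 17 libraries, its normalized CPM was 18.4 times higher for B2M, 11.9 times for DLA88 and 6.84 times for NLRC5. The smallest ratios were 2.38 for PDIA3 and 2.83 for CALR. Against the highest of the other 17, the ratio ran from 1.19 for TAPBP to 4.17 for ENSCAFG00000051129. French bulldog 6 alone supplied 56.2% of the B2M and 44.1% of the DLA88 summed over the 11 French bulldogs, but 17.8% of the PDIA3. The part of its macrophage markers in these levels was not tested.

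**Figure D2:**
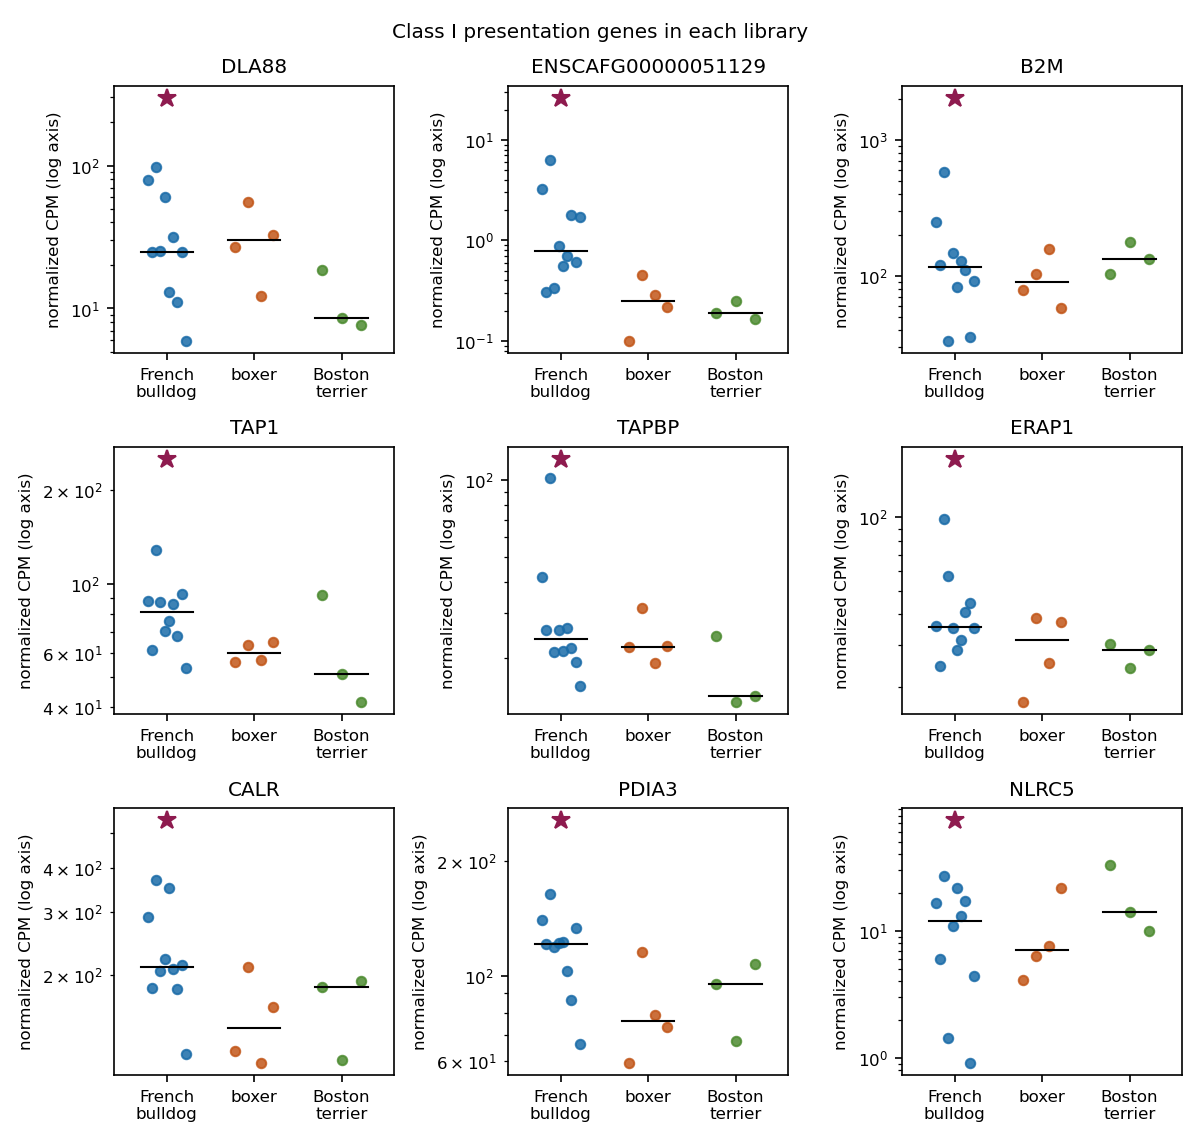
Normalized CPM (log axis) of the 9 class I presentation genes in each library, by breed. Circles are single libraries, black lines are medians without French bulldog 6, and the star is French bulldog 6, which is the highest point in every panel (2026 normalized CPM for B2M).

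The heavy chain listed as DLA88 spanned a wide range in both groups. Its level was 296 normalized CPM in French bulldog 6. In the other 10 French bulldogs it ran from 5.94 in French bulldog 9 to 98.0 in French bulldog 11, with a median of 25.0, and in the comparison group from 7.62 to 55.8 with a median of 18.7. The groups overlapped across most of this range, and 3 of the other 10 French bulldogs were above every dog of the comparison group while 1 was below all of them. The means were 61.0 ± 83.4 normalized CPM (SD, n = 11), or 37.45 ± 31.2 (SD, n = 10) without French bulldog 6, and 23.3 ± 17.2 (SD, n = 7). The log2 fold change of French bulldogs over the comparison group was 1.39 (standard error, SE, 0.69, adjusted p = 0.489 in the quasi-likelihood test of edgeR), and 0.73 (SE 0.54, edgeR adjusted p = 0.645) without French bulldog 6. With all 11 French bulldogs it was 0.93 (SE 0.86, edgeR adjusted p = 0.808) against boxers alone and 2.42 (SE 1.11, edgeR adjusted p = 1.00) against Boston terriers alone. Without French bulldog 6 these were 0.23 (SE 0.62, edgeR adjusted p = 0.941) and 1.70 (SE 0.77, edgeR adjusted p = 0.976).

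The second heavy chain row, ENSCAFG00000051129, was barely counted in the comparison group, where it had 1 to 5 counts per library. In French bulldog 6 it had 250 counts, or 26.0 normalized CPM. The other 10 French bulldogs had 3 to 63 counts, or 0.305 to 6.25 normalized CPM with a median of 0.791, against 0.1002 to 0.457 in the comparison group with a median of 0.216. Of these 10, 8 were above every dog of the comparison group, and French bulldogs 2 and 10, at 0.335 and 0.305, were within its range. French bulldogs 11 and 1 followed French bulldog 6, with 6.25 and 3.27 normalized CPM. Several dogs of the comparison group were at or below the limit of 3 counts, so no fold change is given. The row did not pass the filter on low counts in the test of all 18 libraries. It did in fits with fewer comparison dogs, where its fold changes are not given either.

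The 2 rows, both of class I type by the names given to them, differed in where they placed French bulldog 9. This dog had the lowest DLA88 of the 18 libraries but ranked 5 for ENSCAFG00000051129, with 22 counts. Over 16 units, taking French bulldogs 2 and 8 as 1 unit and leaving out French bulldog 6, their log2 levels had a Pearson r of 0.42 and a Spearman rho of 0.33, with the 7 comparison dogs at 1 to 5 counts of the latter row. Class I heavy chain genes can be alike in sequence, which was not compared here, and how reads that match several of them were counted is not given in the sources used here. The division of reads among DLA88, ENSCAFG00000051129, DLA-64 and DLA-79 is therefore uncertain.

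B2M, the invariant light chain of every class I molecule, was set apart by a few French bulldogs. It reached 2026 normalized CPM in French bulldog 6 and 582 in French bulldog 11. The other 10 French bulldogs ran from 33.2 to 582 with a median of 115, and the comparison group from 58.5 to 178 with a median of 103. French bulldogs 2 and 8, at 33.2 and 35.6, were the only libraries below the comparison group, while French bulldogs 1 and 11 were the only ones of the 10 above it. The mean of 328 ± 584 normalized CPM (SD, n = 11) had a spread larger than itself, as had the 158 ± 161 (SD, n = 10) without French bulldog 6, beside 116 ± 42.9 (SD, n = 7) in the comparison group. The log2 fold change was 1.498 (SE 0.74, edgeR adjusted p = 0.485) with all libraries and 0.48 (SE 0.48, edgeR adjusted p = 0.747) without French bulldog 6.

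Among the genes that supply and load peptides, TAP1 is a subunit of the TAP transporter. Its level was 252 normalized CPM in French bulldog 6, 53.4 to 129 with a median of 81.2 in the other 10 French bulldogs, and 41.7 to 91.7 with a median of 56.6 in the comparison group. Boston terrier control 2, at 91.7, lay far above the other dogs of its group, which were all at or below 65.2, and 9 of the 10 French bulldogs were above the median of the comparison group. The log2 fold change of TAP1 was 0.67 (SE 0.27, edgeR unadjusted p = 0.0242, adjusted p = 0.433), and 0.45 (SE 0.18, edgeR unadjusted p = 0.0222, adjusted p = 0.416) without French bulldog 6.

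TAPBP encodes tapasin, which bridges the transporter and the empty heavy chain. It stood at 121 normalized CPM in French bulldog 6 and 102 in French bulldog 11. The other 10 French bulldogs had a median of 23.8, close to the 22.0 of the comparison group, whose range was 13.5 to 31.4. Only French bulldogs 11 and 1, with 102 and 41.7, and French bulldog 6 were above that range. Its log2 fold change was 0.93 (SE 0.42, edgeR adjusted p = 0.452) and 0.65 (SE 0.35, edgeR adjusted p = 0.509) without French bulldog 6.

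ERAP1 is an aminopeptidase that trims peptides in the endoplasmic reticulum. Its level was 174 normalized CPM in French bulldog 6, 24.6 to 98.3 with a median of 35.5 in the other 10 French bulldogs, and 17.4 to 38.5 with a median of 28.6 in the comparison group. French bulldogs 2, 7, 8 and 11 were above the comparison group, and no French bulldog was below it. For ERAP1 the log2 fold change was 0.94 (SE 0.37, edgeR unadjusted p = 0.0198, adjusted p = 0.433), and 0.62 (SE 0.26, edgeR unadjusted p = 0.0294, adjusted p = 0.426) without French bulldog 6.

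CALR and PDIA3, the chaperone calreticulin and the disulfide isomerase ERp57, belong to the loading complex and also fold many other glycoproteins. PDIA3 was 255 normalized CPM in French bulldog 6, 66.5 to 164 with a median of 121 in the other 10, and 59.3 to 116 with a median of 78.9 in the comparison group. Thus 7 of the 10 were above every dog of the comparison group. CALR was 544 normalized CPM in French bulldog 6, 119 to 370 with a median of 210 in the other 10, and 113 to 210 with a median of 162 in the comparison group, and 5 of the 10 were above it.

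The log2 fold change of PDIA3 was 0.61 (SE 0.22, edgeR unadjusted p = 0.0132, adjusted p = 0.433) and 0.49 (SE 0.18, edgeR unadjusted p = 0.0148, adjusted p = 0.396) without French bulldog 6. For CALR it was 0.74 (SE 0.26, edgeR unadjusted p = 0.0106, adjusted p = 0.433) and 0.60 (SE 0.22, edgeR unadjusted p = 0.0125, adjusted p = 0.387). Neither gene passed the adjusted threshold in either fit. French bulldog 9 had the lowest CALR, PDIA3, TAP1, TAPBP and DLA88 of the 11 French bulldogs.

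NLRC5, the transactivator of class I promoters, followed another order. It was 74.1 normalized CPM in French bulldog 6, 0.916 to 27.0 with a median of 12.0 in the other 10 French bulldogs, and 4.11 to 32.7 with a median of 10.0 in the comparison group. French bulldogs 8 and 2, with 9 and 13 counts, were the lowest of all libraries, and Boston terrier control 2 was the highest after French bulldog 6. The log2 fold change was 0.35 (SE 0.66, edgeR adjusted p = 0.892) and -0.17 (SE 0.56, edgeR adjusted p = 0.946) without French bulldog 6. With all libraries it was -0.17 in limma-voom, and -0.071 in edgeR against Boston terriers alone, so its sign depended on the libraries and the test.

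**Figure D3:**
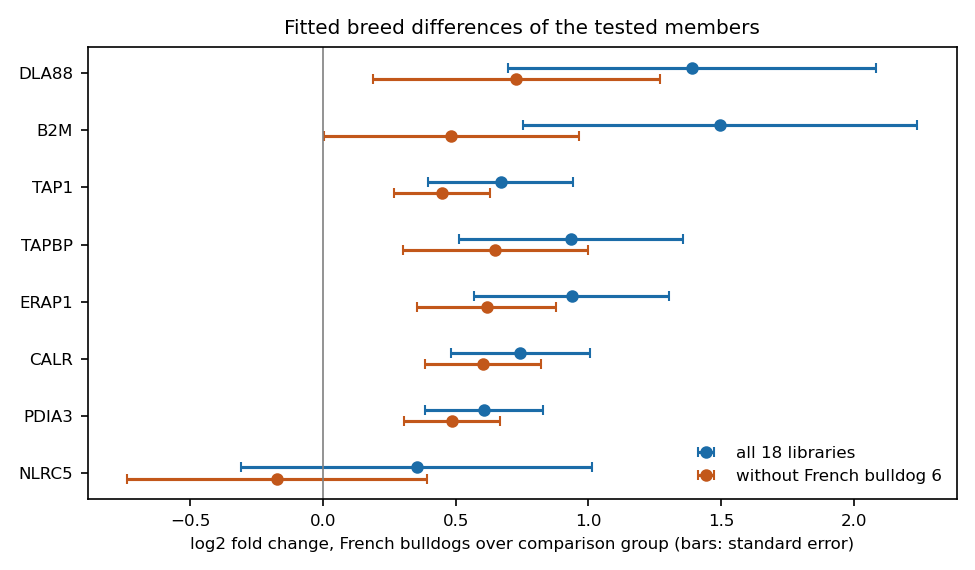
Fitted log2 fold change of French bulldogs over the comparison group (x axis) for the 8 members tested (y axis), with bars of 1 standard error, for all 18 libraries and without French bulldog 6. Without that library B2M moved from 1.498 to 0.48 and NLRC5 from 0.35 to -0.17, while PDIA3 moved from 0.61 to 0.49.

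Across the 8 members tested, 0 passed the threshold of 0.05 on the adjusted p-value of edgeR, which 1 of 16495 genes passed (0.00606%). By unadjusted p-value, 5 of the 8 (TAP1, TAPBP, ERAP1, PDIA3 and CALR) were under 0.05 and higher in French bulldogs, beside 7.02% of all genes tested. All 8 log2 fold changes were above 0, as were 53.7% over all genes, and their median was 0.84 beside 0.04 over all genes. Without French bulldog 6, 0 of 8 were called, where 3 genes were called in all (0.0183%), and 4 of the 8 (TAP1, ERAP1, PDIA3 and CALR) had an unadjusted p-value under 0.05 and were higher, beside 6.92%. In that fit 7 of the 8 log2 fold changes were above 0 (55.4% over all genes), with a median of 0.54 beside 0.05. The DESeq2 Wald test, which the study used, also called 0 of these 8, where 58 genes were called (0.258%), and gave 6 of the 8 an unadjusted p-value under 0.05 and a higher level (6.41% of all genes). The smallest adjusted p-value of the 8 in DESeq2 was 0.2004, for CALR. In a further fit, French bulldogs 2 and 8 were summed and French bulldog 6 was left out. There the log2 fold changes of CALR, PDIA3, TAP1 and ERAP1 were 0.60, 0.46, 0.40 and 0.56. Their edgeR unadjusted p-values were 0.0163, 0.0252, 0.0451 and 0.0475, and 0 of the 8 passed the adjusted threshold.

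Leaving out each library in turn called 0 of the 8 in all 18 fits, 17 of which held French bulldog 6. The number higher at an unadjusted p-value under 0.05 ran from 3, without Boston terrier control 7 (7.46% of all genes), to 7, without French bulldog 4 (6.96%) or French bulldog 9 (8.89%). CALR, PDIA3 and ERAP1 kept an unadjusted p-value under 0.05 in 18 of 18 of these fits, TAP1 in 17, TAPBP in 11, DLA88 and B2M in 4 and NLRC5 in 0. The library names of controls 5 to 7 repeat the numbers of French bulldogs 1 to 3, and those of controls 1 to 4 repeat none. With French bulldog 6 included, against controls 1 to 4 alone the median log2 fold change of the 8 was 0.73, beside 0.03 over all genes, and against controls 5 to 7 alone it was 0.90, beside 0.10. In each of these fits 1 of the 8 was higher at an unadjusted p-value under 0.05, CALR in the former (3.42% of all genes) and TAP1 in the latter (2.28%). Without French bulldog 6 the medians were 0.42, beside 0.01 over all genes, and 0.56, beside 0.07, and 0 of the 8 (3.21% of all genes) and 1 of the 8, TAP1 (3.05%), were higher at an unadjusted p-value under 0.05.

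Within the comparison group, 0 of the 8 members tested in the main fit passed the threshold between boxers and Boston terriers in edgeR's test. This held on the adjusted p-value (0 of 17934 genes, 0.0%) and on the unadjusted p-value (381 genes, 2.12%). DLA88 was 12.2, 27.1, 32.9 and 55.8 normalized CPM in the 4 boxers and 7.62, 8.53 and 18.7 in the 3 Boston terriers. On the log2 scale the fold change of boxers over Boston terriers was 1.46 (SE 1.06, edgeR unadjusted p = 0.186), and 3 of the 4 boxers were above every Boston terrier. In a fit of the comparison libraries alone its unadjusted p-value was 0.0206 (adjusted p = 0.795, edgeR). NLRC5 was 4.11, 6.40, 7.63 and 21.6 normalized CPM in boxers and 10.0, 14.0 and 32.7 in Boston terriers, a log2 fold change of -0.93 (SE 1.03, edgeR adjusted p = 1.00). ENSCAFG00000051129 passed the filter in the fit of 3 breeds but not in the comparison libraries alone. With 1 to 5 counts in these dogs, it is left out of the count of members and no fold change is given.

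Some dogs ranked high or low in most of the genes, and others did not. French bulldog 11 was the highest library after French bulldog 6 in 8 of the 9 genes, including 7 of the 8 tested, and was the highest of those 17 libraries in 12.1% of all genes tested. Its median rank over the 9 genes was 2, and that of French bulldog 1 was 3. French bulldog 9 and Boston terrier control 6 had a median rank of 16. French bulldogs 2 and 8 paired a low B2M and NLRC5 with a high ERAP1, where they ranked 3 and 4.

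**Figure D4:**
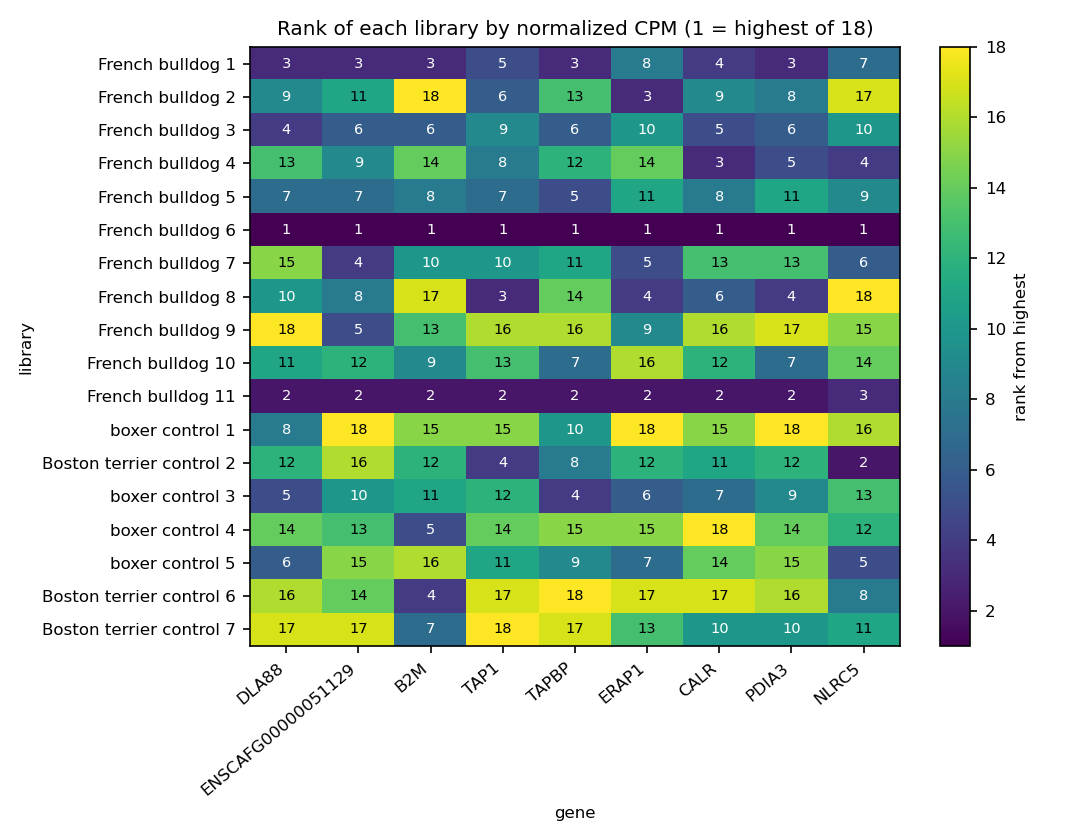
Rank of each library (rows) by normalized CPM for each class I presentation gene (columns), with 1 as the highest of 18. French bulldog 6 ranks 1 in every column and French bulldog 11 ranks 2 in all but NLRC5, where it ranks 3.

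Over the 16 units without French bulldog 6, all 28 pairs of the 8 tested members had a Pearson r above 0 on log2 normalized CPM. The lowest was 0.15, for DLA88 with NLRC5, the median 0.60 and the highest 0.89, for CALR with PDIA3. By rank, 27 of the 28 pairs were above 0, with a median Spearman rho of 0.44. The lowest were those of B2M, with a rho of -0.050 with ERAP1 and 0.015 with TAP1, where the r was 0.35 and 0.29. DLA88 and TAPBP, which bind each other in the loading complex, had an r of 0.83 and a rho of 0.89. TAPBP followed the mean of the other 7 members most closely, with an r of 0.90, which no gene outside the members exceeded. TAP1 had an r of 0.77 with the mean of the others and CALR 0.80, while B2M had 0.52 and NLRC5 0.36, which 6.22% and 15.5% of other genes exceeded. These are descriptions over units that share the depth and tissue make-up of their libraries. French bulldog 11 had the highest mean z-score of the 8 members, 2.12, followed by French bulldog 1 with 0.96. For these pairs, neither an r without French bulldog 11 nor a share over all pairs of genes was computed.

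NLRC5 is known to activate several of these genes. Its r with DLA88 was 0.15 and with TAP1 0.30, and 32.0% and 17.5% of all genes tested had a higher r. With B2M, where 3.95% of all genes had a higher r, the r was 0.53 and the rho 0.29 (permutation test with 100000 resamples, two-sided, p = 0.0375 and p = 0.283, n = 16), and of 8 relations with NLRC5 computed, 0 had an adjusted p-value under 0.05. For B2M the adjusted p-values were 0.2999 and 0.491. Leaving out the pair of units farthest from the median NLRC5, French bulldogs 2 and 8 and boxer control 1, brought the r of B2M to 0.20, so that the relation rested on those units. With TAP1 the same step raised the r from 0.30 to 0.64.

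By Pearson's r over all 16 units, B2M was the member that ran most closely with the lists of macrophage and microglia markers and of interferon-stimulated genes. Of 27 relations between the 9 members and 3 lists, 2 had an adjusted p-value under 0.05 for Pearson's r, both of B2M, and 0 did for Spearman's rho. With the macrophage and microglia list the r was 0.71 and the rho 0.61 (permutation test with 100000 resamples, two-sided, p = 0.00244 and p = 0.0136, adjusted p = 0.0329 and 0.160, n = 16). Pearson's r was 0.73 without French bulldogs 1 and 4, 0.83 within the 9 French bulldog units and 0.09 within the 7 comparison dogs; whether these values differ was not tested. Over all genes tested, 2.04% had a higher r with this list.

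With the interferon-stimulated genes the r of B2M was 0.82 and the rho 0.58 (permutation test with 100000 resamples, two-sided, p = 0.00061 and p = 0.0198, adjusted p = 0.0165 and 0.160, n = 16). It was 0.94 within French bulldogs and 0.09 within the comparison group. Without French bulldog 11, which had the highest score of the list at 2.51, and French bulldogs 2 and 8, which had the lowest at -1.52, the r was 0.32, so that the relation rested on those units. TAPBP had an r of 0.76 with the same list, with an adjusted permutation p of 0.0553 over the 16 units. For DLA88 the r was 0.49 with the interferon-stimulated genes, 0.49 with the macrophage list and 0.48 with the T cell and NK cell list, of which just CD2, CD4 and CD5 passed the filter on low counts.

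**Figure D5:**
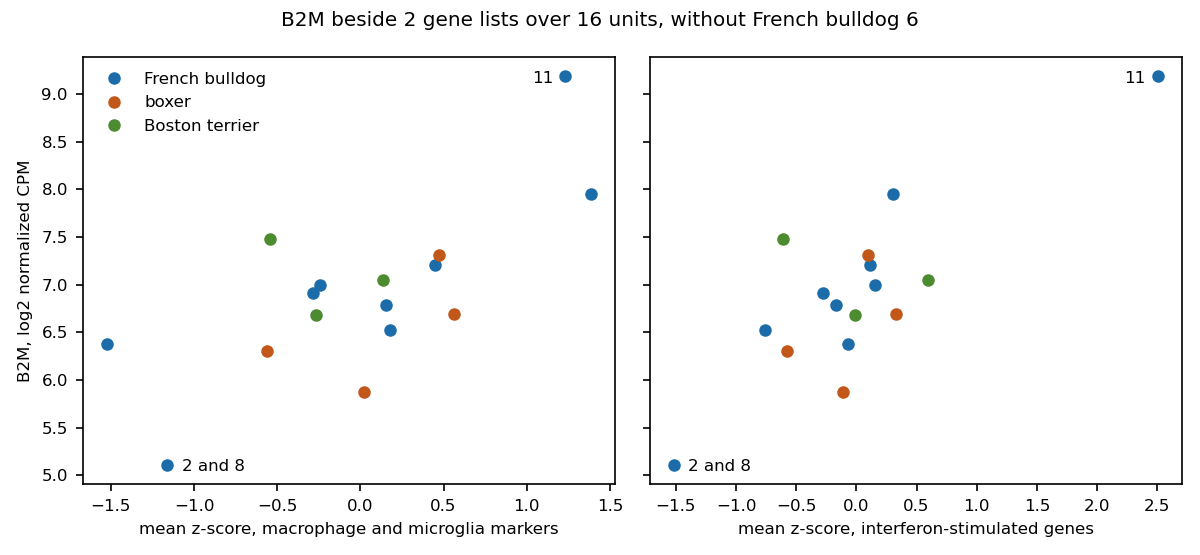
Log2 normalized CPM of B2M (y axis) beside the mean z-score of macrophage and microglia markers (left, x axis) and of interferon-stimulated genes (right, x axis) in 16 units by breed, without French bulldog 6. French bulldog 11 and the mean of French bulldogs 2 and 8 are labelled, and on the right, where the r was 0.82, the first has a score of 2.51 and the second of -1.52.

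The other genes of the pathway were described from fixed lists, and 0 of their genes passed the threshold on the adjusted p-value of edgeR, while the counts at an unadjusted p-value under 0.05 are given list by list. Of 4 other class I heavy chain genes, 1 had an unadjusted p-value under 0.05 and was higher (7.02% of all genes), with a median log2 fold change of 0.54. Without French bulldog 6 it was 0 of 4 (6.92%), and the median was -0.097. The gene with the low p-value was DLA-64, at 1.47 (SE 0.65, edgeR adjusted p = 0.452) with all libraries and 0.57 without French bulldog 6. DLA-79, another heavy chain, was 0.27 with all libraries and -0.67 without French bulldog 6. FCGRT, which carries antibodies rather than peptides, moved from 0.82 to 0.07.

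Of 8 tested genes for proteasome subunits and activators, 8 had a log2 fold change above 0, with all libraries (53.7% of all genes) and without French bulldog 6 (55.4%). An unadjusted p-value under 0.05 and a higher level were seen for 2 of 8 with all libraries (7.02%) and for 1 of 8, PSME1, without French bulldog 6 (6.92%). PSMB8, a subunit of the immunoproteasome, was 1.78 (SE 0.84, edgeR adjusted p = 0.470) with all libraries and 0.46 without French bulldog 6. PSME1, an activator subunit, was 0.80 and 0.47. The constitutive subunits PSMB5 and PSMB7 were 0.43 and 0.28 with all libraries and 0.26 and 0.27 without it.

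Loading chaperones and peptide handling formed the next list. In it 7 of 13 genes had an unadjusted p-value under 0.05 and were higher with all libraries (7.02% of all genes), and 6 of 13 without French bulldog 6 (6.92%), with median log2 fold changes of 0.53 and 0.42. HSP90B1, a chaperone of the endoplasmic reticulum, was 1.10 (SE 0.37, edgeR adjusted p = 0.433) and 0.69 (SE 0.20, edgeR adjusted p = 0.365) in these fits. HSPA5, the stress chaperone BiP, was 0.85 and 0.55, and SEC61B, part of the channel into the endoplasmic reticulum, 0.61 and 0.56. ERAP2, the partner of ERAP1, was 3.03 with all libraries and 0.72 without French bulldog 6.

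Among 14 transcription factors of class I promoters, 4 were under an unadjusted p-value of 0.05 and higher (7.02% of all genes), and 2 without French bulldog 6 (6.92%). These 2 were NFYB and CREB1, which bind the promoter module that NLRC5 joins, at 0.49 and 0.40 with all libraries and 0.45 and 0.41 without it. The other 2, IRF1 and the class II transactivator CIITA, went from 2.00 to 0.63 and from 2.55 to 0.38. Of 6 genes for interferon receptors and kinases, 1 had an unadjusted p-value under 0.05 and was higher (7.02%), and 0 of 5 tested without French bulldog 6 (6.92%). It was JAK2, a kinase of the interferon receptors, at 0.54 with all libraries and 0.34 without French bulldog 6. The 15 interferon-stimulated genes tested had a median of 0.96 and 0.52, with 0 under an unadjusted p-value of 0.05 in either fit. In edgeR 15 of 15 were above 0 with all libraries, while DESeq2, with 16 tested, put 11 above and 5 below 0, with 4 higher (6.41% of all genes) and 1 lower (3.21%) at an unadjusted p-value under 0.05. The antiviral effectors IFIT1 and ISG15 were 2.29 and 1.82 in edgeR with all libraries and 1.56 and 1.94 without French bulldog 6. They were -0.51 and -0.14 in DESeq2 with all libraries. DESeq2 as run can replace outlying counts, so the direction of both genes depended on the test and its settings. OAS2 and MX2, 2 other antiviral genes, were 1.70 and 1.17 in edgeR and 1.76 and 1.21 in DESeq2. IFIT3, named after its values were seen, was the gene lower in DESeq2, at -0.79 (adjusted p = 0.335).

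The markers of other cell types stood as follows beside these values. Of 17 macrophage and microglia markers, 9 had an unadjusted p-value under 0.05 and were higher with all libraries (7.02% of all genes), with a median log2 fold change of 1.95, and 0 without French bulldog 6 (6.92%), with a median of 0.12. DESeq2, which as run can replace outlying counts, gave 1 of 17 (6.41%) and a median of 0.10 with all libraries. CD163, a scavenger receptor of macrophages, was 4.94 in edgeR with all libraries and 1.05 without French bulldog 6. In DESeq2 with all libraries CD163 was 1.00. Summed levels of this list were 103 to 614 normalized CPM in the other 10 French bulldogs and 192 to 345 in the comparison group. T cell and NK cell markers summed to 3.45 to 17.3 and 3.62 to 48.0, and 3 of 15 passed the filter. CD8A, PRF1, GZMA and GZMB, which mark cytotoxic cells, had at most 4 counts in any of the 17 libraries. Oligodendrocyte lineage markers had a median log2 fold change of 0.10 with all libraries and 0.25 without French bulldog 6, and endothelial markers of -0.16 and -0.06. The part of the cell types in the differences of the class I presentation genes was not tested.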

How the data were processed

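RNASeq libraries were made with a stranded total RNA kit from formalin-fixed, paraffin-embedded HGO. Per the labels and the study's methods, reads were trimmed with Trimmomatic 0.33, checked with FastQC, mapped with HISAT2 2.1.0 to the canFam6 dog genome and counted per gene with featureCounts, and DESeq2 is named as well. The authors deposited raw counts per gene, not normalized. Strand and multi-mapping settings are not given in the sources used here. Groups were taken from the breed label, and the study describes each library as a separate dog.

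The members, gene lists and tests were chosen with earlier results of these data known. Genes were tested with edgeR 4.0.16 in R 4.3.3 (quasi-likelihood F test, TMM normalization, filterByExpr by group, robust, no covariate, two-sided, Benjamini-Hochberg adjustment over all genes tested, threshold 0.05). The filter left 16495 genes. SE was computed from the log2 fold change and the F statistic, as their ratio after taking the root of F. Boxers and Boston terriers were compared in a fit of 3 breeds. DESeq2 1.42.0 and limma 3.58.1 (voom) were alternatives. DESeq2 was run with its default settings, which replace outlying counts in larger groups. Which counts were replaced was not recorded. Normalized CPM are counts scaled by the TMM-adjusted library size to a common total, and log2 values use a prior count of 2. List scores are mean z-scores of genes that passed the filter. Correlations used 16 units, 9 of French bulldogs and 7 of the comparison group, with 100000 permutations and Benjamini-Hochberg adjustment over 8 or 27 relations.

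Every member was named, of each list at most the 4 genes of smallest unadjusted p-value, and the 10 genes most like the mean z-score of the tested members over the 16 units, of which 1 is not reported here. OLIG1, OLIG2, SOX10, NKX2-2, P2RY12, CX3CR1, CD8A, PRF1, GZMA, GZMB and IFIT3 were named after their values were seen. The fits and correlations were tested on simulated data. Analyses used Python 3.11.15, pandas 2.3.3, numpy 2.4.6, scipy 1.17.1 and matplotlib 3.10.9. The annotation at hand belongs to another assembly, so no coordinates are given and sequences were not used here.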

Additional observations from a re-analysis of the deposited data

How the results depend on the processing

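The 8 tested class I presentation genes gave 0 calls under every alternative run, among them DESeq2, limma-voom, other normalizations and filters, each breed, controls 1 to 4 or controls 5 to 7 alone, and each library left out in turn. Of 311 refitted log2 fold changes, 302 kept their sign and 9 did not, all of NLRC5. NLRC5 was 0.35 in the main test and -0.17 with limma-voom, -0.17 without French bulldog 6, -0.070 without French bulldog 6 and with French bulldogs 2 and 8 summed, -0.071 against Boston terriers alone, and, in settings chosen after seeing the data, -0.18 with DESeq2, -0.18 with no filter, and -0.64, -0.088 and -0.33 against Boston terriers, controls 1 to 4 and controls 5 to 7 alone, all without French bulldog 6. B2M was 0.43 in DESeq2 with all libraries, beside 0.48 in edgeR without French bulldog 6. DESeq2 ran with its default replacement of outlying counts, and the part of that step was not tested. The number of all genes called, 1 in the main test, was 58 in DESeq2 and 76 in DESeq2 without French bulldog 6, 2 with limma-voom or upper quartile normalization, 3 without French bulldog 6, with or without the filter, and 0 with at least 10 counts in every dog, with French bulldogs 2 and 8 summed (with or without French bulldog 6), against boxers alone, controls 1 to 4 alone or controls 5 to 7 alone (with or without French bulldog 6). Leaving out 1 library gave 0 to 7 calls.

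The numbers 1 to 7 that both groups share are only names: the correlation of deviations within a number ran from -0.50 to 0.21. A replicate block over them called 0 genes (967 at an unadjusted p under 0.05, 6.03% of those tested, and 1 of 8 members), against 5 genes (1726, 10.8%, and 7 of 8 members) in the same 14 libraries with no replicate block.

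With French bulldog 6 included, 26 of 27 relations with the lists and 1 with NLRC5 had an adjusted p-value under 0.05. That library was highest in every member and far above the others on the macrophage and microglia list. This count therefore rests on 1 extreme library, gives no support for a relation, and has no share over all genes beside it. With French bulldogs 2 and 8 apart and French bulldog 6 left out, 4 relations had an adjusted p-value under 0.05. The r of NLRC5 with the T cell and NK cell list was then -0.041 in place of 0.0012. Depth limits ENSCAFG00000051129, with 1 to 5 counts in the comparison group.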

Other observations

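Genes whose log2 levels followed the mean z-score of the 8 tested members most closely over 16 units, without French bulldog 6, had a Pearson r of 0.82 to 0.90. Among them were ZBP1 (0.90), HEATR5A (0.89), NXN (0.88), YBX3 (0.85), CYFIP1 (0.85), PARP14 (0.85), RTP4 (0.82), M6PR (0.82) and ENSCAFG00000041429 (0.82). ZBP1, a sensor of Z-form nucleic acid, was 29.7 normalized CPM in French bulldog 11, at most 1.51 in the comparison group and 55.4 in French bulldog 6. PARP14, which is also in the list of interferon-stimulated genes, was 108 in French bulldog 11, 12.8 to 27.0 in the comparison group and 163 in French bulldog 6. M6PR, the receptor that carries enzymes to lysosomes, was 435 in French bulldog 6 and 39.6 to 73.0 in the other French bulldogs. Among the 10 French bulldogs other than French bulldog 6, French bulldog 11 had the highest level of each gene named here. Except for NXN, RTP4 and ENSCAFG00000041429, these genes were highest of the 18 libraries in French bulldog 6. The ranking was made on the same units, so these values are a description.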
